A study of Mus musculus with 18 samples.

Results

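Expression of 10 genes of G-protein signalling was followed in J774.1 cells, a mouse macrophage line: the regulators of G-protein signalling Rgs1, Rgs2, Rgs10, Rgs14, Rgs18 and Rgs19, and the G-protein alpha subunits Gna12, Gna13, Gna15 and Gnai2. The set was chosen from measured values, since Rgs2 was lower with the inhibitor MTOB and Gna15 was higher with the inhibitor 4-Cl-HIPP. Those inhibitor effects are therefore given as a description with no test. Of the 10 genes, 9 were among the 18204 genes of the table, and all 9 passed the filter on low values. Rgs18 was not analysed here.

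The study asked whether MTOB and 4-Cl-HIPP, substrate-competitive inhibitors of the transcriptional co-regulators CTBP1 and CTBP2, act through these proteins. Wildtype and Ctbp1/2 double knockout (dKO) J774.1 cells received vehicle, 1.5 mM MTOB or 0.25 mM 4-Cl-HIPP for 4 h, with 3 samples in each of the 6 groups and 1 shared vehicle group per genotype. The knockout was made with CRISPR/Cas9 and cells were grown out as single-cell clones, so a property of a clone and an effect of the genotype cannot be told apart. The doses of the inhibitors differed, so their values are given side by side and are not compared with each other.

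In the G-protein cycle, an activated receptor makes an alpha subunit exchange GDP for GTP, and the alpha subunit and the beta-gamma pair then act on effectors until the GTP is hydrolysed. RGS proteins speed up that hydrolysis and so shorten the signal. In macrophages, receptors for complement fragments, chemokines, purines and prostaglandins work through this cycle.

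Expression is given in TPM, the transcript share scaled to a fixed total in each sample, which is scaled for transcript length and can therefore be compared between genes. Fold changes are on the log2(TPM + 1) scale and were tested with limma across 16383 genes, with Benjamini-Hochberg adjustment over all of them. A gene is called where the adjusted p was below 0.05 and the fold change above 1.5. Samples of a group correlated with Pearson r of 0.984 to 0.988 across genes. Ctbp1 lay between 170 and 238 TPM in the 9 wildtype samples and between 19.7 and 31.5 TPM in the 9 dKO samples, whereas Ctbp2 lay between 87.8 and 96.9 TPM and between 68.5 and 81.9 TPM. The paper reports frameshift and premature stop mutations in both genes, and loss of both proteins on western blots. These RNA values do not measure protein. All 10 of 10 macrophage markers were listed. Their summed TPM was 2770 to 2860 in wildtype vehicle, 3320 to 3490 in wildtype MTOB, 2670 to 2730 in wildtype 4-Cl-HIPP, 2520 to 2580 in dKO vehicle, 2610 to 2930 in dKO MTOB and 2400 to 2480 in dKO 4-Cl-HIPP, so the sum moved with the groups, and its part in the results was not tested. Of 5 markers each, 2 were listed for T cells, 3 for B cells, 2 for neutrophils, 1 for fibroblasts and 1 for epithelial cells. Summed TPM reached at most 9.07 for T cells, of which Lck held up to 7.01, and at most 1.05 for any of the others. In bulk RNA, fewer cells with a transcript and less of it per cell cannot be told apart.

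The promoters of Rgs2 and Gna15 are shown because these genes differed most with the inhibitors. Each stretch holds the 250 bases before the annotated gene start in GRCm39, read on the minus strand, which is the strand of both genes. Rgs2 is at chr1:143879900-143880149 and Gna15 at chr10:81360256-81360505. Capitals mark matches to TGACG or CGTCA, the core letters of the cyclic AMP response element, to CACCC or GGGTG, the box bound by Krüppel-like factors, and to CACCTG or CAGGTG, the E-box bound by the ZEB repressors that recruit CTBPs. CACCC and CACCTG share their first letters, and the matches in the Rgs2 stretch do not overlap.
Rgs2: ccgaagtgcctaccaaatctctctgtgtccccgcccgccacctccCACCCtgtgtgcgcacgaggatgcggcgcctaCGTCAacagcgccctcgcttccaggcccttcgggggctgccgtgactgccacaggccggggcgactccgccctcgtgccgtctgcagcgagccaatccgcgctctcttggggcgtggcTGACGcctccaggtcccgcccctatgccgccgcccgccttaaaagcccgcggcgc
Gna15: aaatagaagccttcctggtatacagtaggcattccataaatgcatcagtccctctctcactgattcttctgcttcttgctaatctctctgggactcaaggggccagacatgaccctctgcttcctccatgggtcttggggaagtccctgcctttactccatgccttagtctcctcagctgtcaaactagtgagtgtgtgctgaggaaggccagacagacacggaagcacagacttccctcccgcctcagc
The Rgs2 stretch held 2 matches of the cyclic AMP element core and 1 of the CACCC box, and the Gna15 stretch held no match to any of the 3 motifs. Over 21770 protein-coding genes, 16.3% of such stretches held TGACG on either strand, 51.3% held CACCC and 17.7% held CACCTG. Among the other 8 genes, CACCC matched 1 time each in Rgs10 and Rgs19, and CACCTG matched 2 times in Rgs14 and 1 time in Gna12. A match describes letters and does not show binding.

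Rgs1, Rgs2 and Rgs18 lie on the minus strand of chromosome 1, with 238 kb between Rgs2 (ENSMUSG00000026360, chr1:143875076-143879899) and Rgs1 (ENSMUSG00000026358, chr1:144118034-144124980). Rgs13 lies between these, a further 503 kb separate Rgs1 from Rgs18, and Rgs21 lies in that stretch. Rgs13 and Rgs21 were not analysed here. Gna15 (ENSMUSG00000034792, chr10:81336101-81360255) starts 4.3 kb from Gna11, the alpha subunit gene of the same Gq family. Reads carried no strand, so bases shared with a gene on the other strand cannot be assigned. Such bases made up 18.6% of the exon bases of Gna12, shared with Amz1, and 15.8% of those of Rgs19, shared with Tcea2. They made up 11.3% for Rgs2, shared with the long non-coding RNA gene Gm41964, and 5.49% or less for any single partner of Gna13, Gna15 and Gnai2.

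The 9 genes differed widely in level. Gnai2, which encodes the inhibitory subunit that lowers cyclic AMP and serves chemokine receptors, was the highest in all 6 groups, with 418 ± 20.1 TPM (SD, n = 3) in wildtype vehicle. Rgs19 followed with 141 ± 2.01 TPM and Rgs10 with 99.6 ± 0.72 TPM. Next were Gna13 with 46 ± 2.02 TPM, Gna12 with 25.8 ± 0.929 TPM and Rgs14 with 19 ± 0.796 TPM. These 6 genes did not overlap in that group. Rgs2 with 13.3 ± 2.77 TPM and Gna15 with 12.3 ± 0.823 TPM overlapped, and Rgs1 was lowest with 1.25 ± 1.34 TPM.

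In dKO vehicle the order was the same at both ends, with Gnai2 at 468 ± 8.45 TPM and Rgs1 at 0.271 ± 0.299 TPM, but Rgs2 stood at 30.2 ± 0.511 TPM beside Gna12 at 30.6 ± 1.78 TPM, and these 2 genes overlapped. Rgs19 and Rgs10 overlapped there too, as did Rgs14 and Gna15. Rgs2 thus took the 8th place of 9 in wildtype MTOB, the 7th in wildtype vehicle, and the 5th in dKO 4-Cl-HIPP, where its 53.7 ± 2.61 TPM overlapped Gna13 at 56.3 ± 4.51 TPM. Over the 18 samples the highest value of Rgs2 was 16.2 times the lowest. That ratio was 2.46 for Gna15, 1.81 for Rgs10, 1.57 for Gna13, 1.45 for both Rgs19 and Gna12, and 1.35 for both Rgs14 and Gnai2. For Rgs1, which ranged from 0 to 3.09 TPM, no ratio can be formed.

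**Figure D1:**
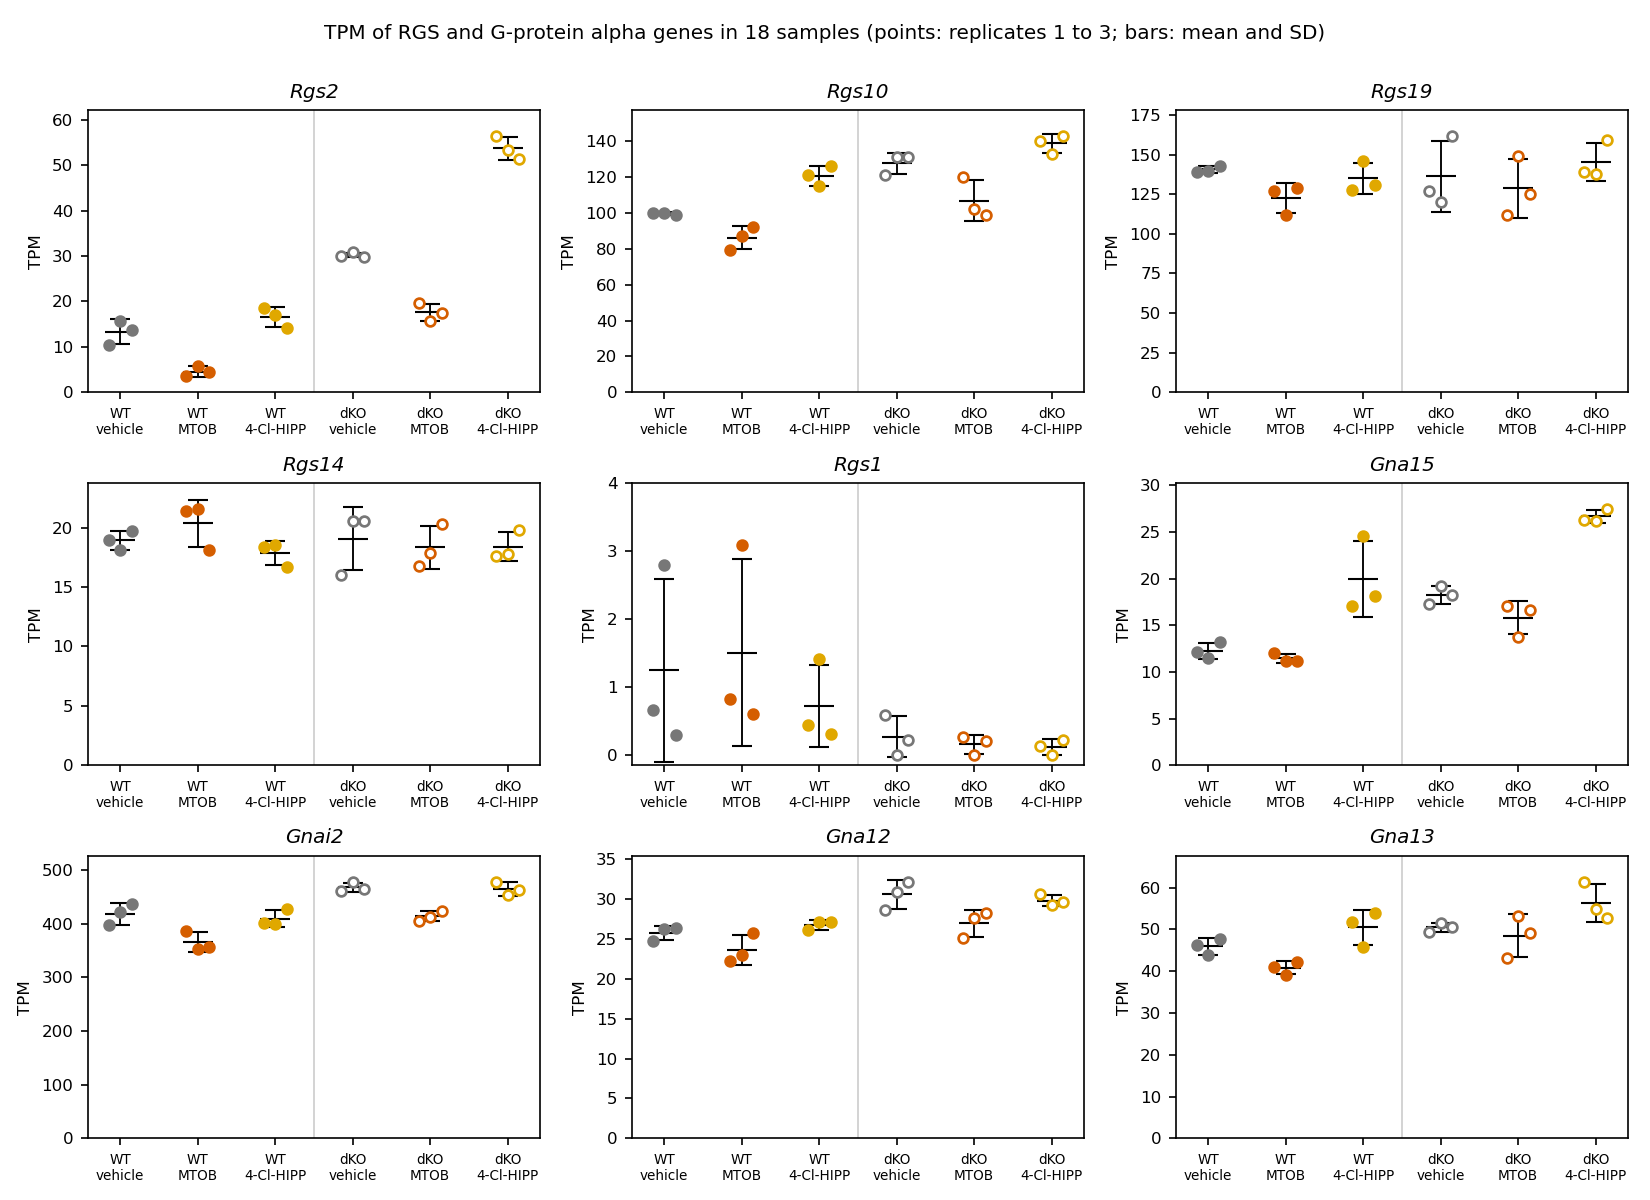
TPM of 9 genes in each of the 18 samples, by genotype and treatment. Filled points are wildtype (WT) and open points dKO samples, and bars show the mean and SD of 3 samples. Rgs2 spans 3.49 to 56.5 TPM, whereas Rgs14 stays between 16 and 21.6 TPM.

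Rgs2 encodes an RGS protein that acts mainly on the Gq class of alpha subunits. In wildtype cells its 3 samples held 10.4, 15.8 and 13.8 TPM with vehicle, 3.49, 5.85 and 4.38 TPM with MTOB, and 18.5, 17.1 and 14.1 TPM with 4-Cl-HIPP. In dKO cells they held 30.1, 30.8 and 29.8 TPM with vehicle, 19.6, 15.8 and 17.4 TPM with MTOB, and 56.5, 53.3 and 51.4 TPM with 4-Cl-HIPP. In both genotypes every MTOB sample lay below every vehicle sample. The 4-Cl-HIPP samples lay above vehicle without overlap in dKO cells and overlapped vehicle in wildtype cells.

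For MTOB, the comparison that chose the gene, the log2 fold change of Rgs2 was -1.37 ± 0.15 (SE) in wildtype and -0.75 ± 0.15 in dKO cells. With 4-Cl-HIPP, which the choice of Rgs2 did not use, Rgs2 rose in dKO cells by a log2 fold change of 0.81 ± 0.15 (95% interval 0.48 to 1.14, limma adjusted p = 0.0281), or 1.75-fold. In wildtype cells the value was 0.30 ± 0.15 (95% interval -0.02 to 0.63, limma adjusted p = 0.664). The 4-Cl-HIPP and MTOB comparisons share the vehicle samples of their genotype. The dKO call needed all 6 of its samples: with 5 of them the adjusted p lay between 0.0716 and 0.12 and the log2 fold change between 0.77 and 0.84. The difference between the genotypes in the 4-Cl-HIPP effect on Rgs2 was -0.50 (wildtype minus dKO, 95% interval -0.97 to -0.04, limma adjusted p = 1), so the test of the difference did not separate them.

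Gna15 encodes an alpha subunit of the Gq class that couples to many receptors, activates phospholipase C beta and is found in blood-forming cells. In wildtype samples it was at 12.1, 11.5 and 13.2 TPM with vehicle, 12, 11.2 and 11.2 TPM with MTOB, and 17.1, 24.6 and 18.1 TPM with 4-Cl-HIPP. In dKO samples it was at 17.3, 19.2 and 18.2 TPM with vehicle, 17.1, 13.8 and 16.6 TPM with MTOB, and 26.3, 26.2 and 27.5 TPM with 4-Cl-HIPP. All 4-Cl-HIPP samples lay above the vehicle samples of their genotype, and in wildtype 1 of the 3 stood well above the other two.

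For 4-Cl-HIPP, the comparison that chose the gene, the log2 fold change of Gna15 was 0.64 ± 0.11 in wildtype and 0.53 ± 0.11 in dKO cells. Without replicate 2, the highest wildtype 4-Cl-HIPP sample, the first value was 0.49. With MTOB, Gna15 did not pass the test in wildtype (log2 fold change -0.09, 95% interval -0.33 to 0.15, limma adjusted p = 0.78) or dKO cells (-0.20, 95% interval -0.44 to 0.04, limma adjusted p = 0.381).

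Among the other alpha subunits, Gnai2 was slightly lower with MTOB in both genotypes. Its wildtype samples held 397, 421 and 437 TPM with vehicle, 386, 353 and 357 TPM with MTOB, and 401, 399 and 428 TPM with 4-Cl-HIPP. Its dKO samples held 461, 477 and 465 TPM with vehicle, 405, 413 and 424 TPM with MTOB, and 478, 453 and 463 TPM with 4-Cl-HIPP. MTOB and vehicle samples did not overlap in either genotype. Gnai2 fell with MTOB by 0.19 on the log2 scale in wildtype (SE 0.04, limma adjusted p = 0.00948) and by 0.17 in dKO cells (SE 0.04, limma adjusted p = 0.0196), changes of 0.874-fold and 0.886-fold that stayed below the 1.5-fold limit. The adjusted p of the first became 0.0529 once replicate 3 of wildtype vehicle was dropped. That of the second became 0.0513 to 0.0823 once any of 4 samples was dropped, dKO vehicle replicates 2 and 3 and dKO MTOB replicates 1 and 2. Without a variance trend the second had an adjusted p of 0.0805, and with the compared groups alone the first had 0.128 and the second 0.057. With 4-Cl-HIPP its log2 fold changes were -0.03 in wildtype and -0.01 in dKO cells, with 95% intervals within -0.12 and 0.08.

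Gna12 and Gna13, which encode the 2 alpha subunits of the G12 class, did not pass the test with either inhibitor. Gna12 ranged from 22.2 to 32.2 TPM over the 18 samples and its log2 fold changes with MTOB were -0.12 in wildtype and -0.18 in dKO cells (limma adjusted p = 0.32 and 0.119). Gna13 ranged from 39.1 to 61.4 TPM, with -0.17 and -0.06 for MTOB (limma adjusted p = 0.254 and 0.751). For 4-Cl-HIPP, log2 fold changes of these 2 genes lay between -0.04 and 0.15, with adjusted p of at least 0.626.

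Rgs10, which acts on the Gi class and is abundant in macrophages and microglia, lay at 100, 99.9 and 98.8 TPM in wildtype vehicle, 79.2, 87.3 and 92.2 TPM in wildtype MTOB and 121, 115 and 126 TPM in wildtype 4-Cl-HIPP. In dKO cells it lay at 121, 131 and 131 TPM with vehicle, 120, 102 and 98.6 TPM with MTOB and 140, 133 and 143 TPM with 4-Cl-HIPP. In both genotypes the MTOB samples lay below and the 4-Cl-HIPP samples above the vehicle samples with no overlap. None of these inhibitor differences passed the test: the log2 fold change with MTOB was -0.21 in wildtype and -0.26 in dKO cells (limma adjusted p = 0.122 and 0.0515), and with 4-Cl-HIPP 0.27 and 0.12 (limma adjusted p = 0.209 and 0.743). In dKO cells the MTOB difference passed without dKO MTOB replicate 1 (log2 fold change -0.35, adjusted p = 0.00752), without wildtype MTOB replicate 1 or 3 (adjusted p = 0.0428 and 0.0494) and among genes with a mean normalized count of 10 or more (0.0417). In wildtype it passed without dKO MTOB replicate 1 (adjusted p = 0.0493).

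Rgs14, an RGS protein that also holds GDP-bound Gi subunits, ranged from 16 to 21.6 TPM, and Rgs19, which acts on Gi and Gq subunits, from 112 to 162 TPM. Neither passed the test with either inhibitor, with log2 fold changes between -0.20 and 0.10. Rgs1, which restrains chemokine receptor signals in leukocytes, had a mean normalized count of only 3.53. Its samples held 0.662, 2.79 and 0.301 TPM in wildtype vehicle, 0.825, 3.09 and 0.601 TPM in wildtype MTOB and 0.446, 1.41 and 0.306 TPM in wildtype 4-Cl-HIPP. In dKO cells they held 0.593, 0 and 0.222 TPM with vehicle, 0.261, 0 and 0.21 TPM with MTOB and 0.137, 0 and 0.227 TPM with 4-Cl-HIPP. Replicate 2 was the highest sample of each wildtype group and the one listed at 0 in each dKO group, and the inhibitor effects had standard errors of 0.39 on the log2 scale and did not pass the test.

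With MTOB, 2 of the 9 genes were lower at an adjusted p below 0.05 in wildtype and 2 in dKO cells, Rgs2 and Gnai2 in both cases, beside 3.46% and 3.54% of all genes tested. Because Rgs2 was picked on this comparison, nothing is read from these counts. The median log2 fold change of the 9, Rgs2 among them, was -0.167 in wildtype and -0.175 in dKO cells, against -0.006 and -0.013 over all genes tested. The value was negative for 7 and for 9 of the 9 genes, beside 8447 and 8605 of 16383 genes tested. Rgs2 is among them, so nothing is read from these medians and signs. Rgs2 was the 1 gene called lower in each genotype, beside 0.452% and 0.476% of all genes, and nothing is read from that either. With 4-Cl-HIPP, 1 of 9 genes was called higher in wildtype, Gna15, and 1 in dKO cells, Rgs2, beside 0.11% and 0.122% of all genes. The wildtype count rests on the comparison that picked Gna15, so nothing is read from it. Medians, with Gna15 among the 9, were 0.056 and 0.104, against 0.010 and 0.004 over all genes, and nothing is read from them.

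**Figure D2:**
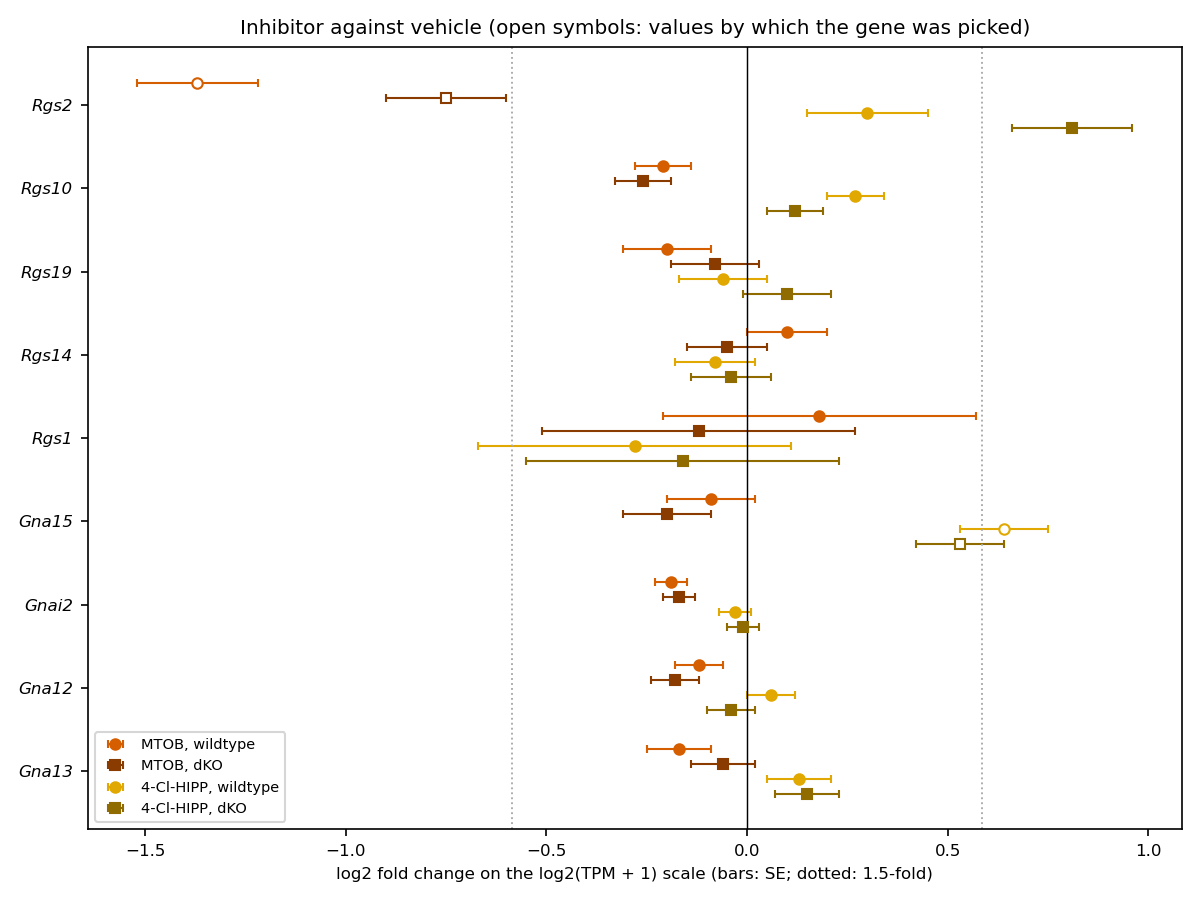
Log2 fold change of each inhibitor against vehicle for 9 genes in wildtype (circles) and dKO cells (squares), with the SE as bars and dotted lines at 1.5-fold. Open symbols are the values by which a gene was picked, and the filled symbol farthest from 0 is Rgs2 with 4-Cl-HIPP in dKO cells at 0.81.

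Rgs2 was higher in dKO than in wildtype cells under every treatment. The dKO samples held 15.8 to 56.5 TPM (median 30.1, n = 9) and the wildtype samples 3.49 to 18.5 TPM (median 13.8, n = 9). Within each treatment the 3 dKO samples lay above the 3 wildtype samples with no overlap. The log2 fold change was 1.14 ± 0.15 under vehicle (2.21-fold, limma adjusted p = 9.7e-05), 1.76 ± 0.15 under MTOB (3.38-fold, limma adjusted p = 1.04e-06) and 1.65 ± 0.15 under 4-Cl-HIPP (3.13-fold, limma adjusted p = 2.22e-06). Each of these was called under all alternatives tried. The vehicle and MTOB samples also entered the comparisons that chose Rgs2, and the 4-Cl-HIPP samples did not.

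Gna15 was higher in dKO cells by a log2 fold change of 0.54 ± 0.11 under vehicle (1.45-fold, limma adjusted p = 0.00471), 0.43 ± 0.11 under MTOB (1.34-fold, limma adjusted p = 0.0222) and 0.42 ± 0.11 under 4-Cl-HIPP (1.34-fold, limma adjusted p = 0.0249). Its dKO samples, from 13.8 to 27.5 TPM, lay above the wildtype samples of the same treatment with no overlap. All 3 differences stayed below 1.5-fold. The vehicle and 4-Cl-HIPP samples also entered the comparisons that chose Gna15, and the MTOB samples did not. The differences under MTOB and under 4-Cl-HIPP lost significance with quantile normalization (adjusted p = 0.06 and 0.0581), and in fits of the compared groups alone (adjusted p = 0.0723 and 0.172). The MTOB difference was also lost without wildtype MTOB replicate 2 or 3 or dKO MTOB replicate 1 or 3 (adjusted p 0.0701 to 0.0831), and the 4-Cl-HIPP difference without wildtype 4-Cl-HIPP replicate 1 or 3 or any dKO 4-Cl-HIPP sample (adjusted p 0.0566 to 0.126).

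Smaller differences of the same sign were measured for Gnai2 and Rgs10. Gnai2 was higher in dKO cells by 0.16 under vehicle, 0.18 under MTOB and 0.18 under 4-Cl-HIPP on the log2 scale (SE 0.04 each, limma adjusted p = 0.0199, 0.00964 and 0.0092). Rgs10 was higher by 0.35 under vehicle and 0.30 under MTOB (SE 0.07 each, limma adjusted p = 0.00475 and 0.0136), and its difference of 0.20 under 4-Cl-HIPP did not pass (limma adjusted p = 0.111). In these samples neither gene overlapped between genotypes within a treatment. The vehicle difference of Gnai2 was lost without any of 3 samples, wildtype vehicle replicate 1 and dKO vehicle replicates 2 and 3 (adjusted p 0.0504 to 0.106), and its MTOB difference without wildtype MTOB replicate 2 (adjusted p = 0.0509). The MTOB difference of Rgs10 was lost without replicate 1 of wildtype or of dKO MTOB (adjusted p = 0.0739 and 0.0565). In fits of the compared groups alone, the vehicle difference of Gnai2 (adjusted p = 0.0772) and the MTOB differences of Gnai2 (0.0875) and Rgs10 (0.179) did not pass, nor did the vehicle difference of Gnai2 without a variance trend (0.0801).

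Gna12 rose under vehicle, from 24.7, 26.2 and 26.4 TPM in wildtype to 28.7, 30.9 and 32.2 TPM in dKO samples (log2 fold change 0.24, SE 0.06, limma adjusted p = 0.02). Under MTOB the value was 0.19 and under 4-Cl-HIPP 0.15 (limma adjusted p = 0.0732 and 0.177). The vehicle difference was lost without any of the same 3 samples as for Gnai2 (adjusted p 0.0652 to 0.0956) and with the compared groups alone (0.0666). Gna13 gave 0.13, 0.24 and 0.15 (limma adjusted p = 0.365, 0.0605 and 0.264). Rgs14 and Rgs19 gave values between -0.15 and 0.11, with adjusted p of at least 0.467. Rgs1 was the only one of the 9 with a negative value beyond the 1.5-fold limit in a genotype comparison, -0.69 under vehicle and -0.99 under MTOB, with SE of 0.39 and adjusted p of 0.35 and 0.135, and it did not pass.

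Under vehicle, 5 of 9 genes were higher in dKO cells at an adjusted p below 0.05 and 0 were lower, beside 7.01% and 3.72% of all genes tested, and 1 of 9 was called higher, beside 3.28%. The count of 5 was 3 with the compared groups alone and without wildtype vehicle replicate 1 or dKO vehicle replicate 2 or 3. Under MTOB the counts were 4 higher, beside 6.98%, and 1 called higher, beside 3.33%. The count of 4 was 1 with the compared groups alone, 2 without wildtype MTOB replicate 2, and 3 to 5 without any other single sample. Under 4-Cl-HIPP they were 3 higher, beside 6.6%, and 1 called higher, beside 3.14%. The called gene was Rgs2 in each. The median log2 fold change of the 9 genes was 0.162, 0.186 and 0.155, against 0.012, 0.003 and 0.005 over all genes. All genotype and inhibitor comparisons reuse samples of the same 6 groups. Rgs2 and Gna15 are in each of these counts and medians. Each genotype comparison also holds samples that entered the choice of Rgs2 or Gna15, so nothing is read from the counts or medians.

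**Figure D3:**
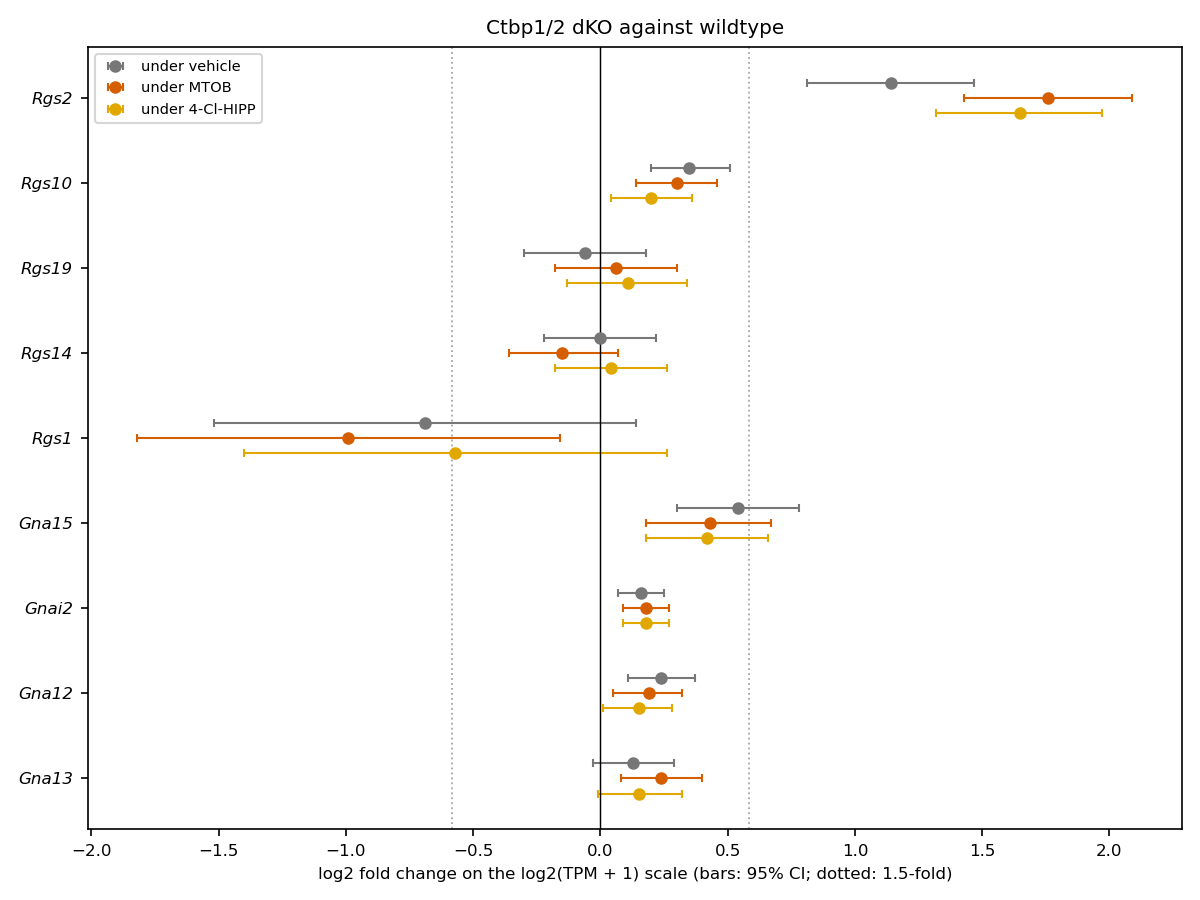
Log2 fold change of dKO against wildtype for 9 genes under vehicle, MTOB and 4-Cl-HIPP, with 95% intervals as bars and dotted lines at 1.5-fold. Rgs2 lies beyond the upper 1.5-fold line under all 3 treatments, from 1.14 to 1.76, and the intervals of Rgs1 are the widest.

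Whether an inhibitor acted differently in the 2 genotypes was tested as the difference between its effects. For MTOB, leaving aside Rgs2, limma gave 0 of the other 8 genes an adjusted p below 0.05, beside 0.0916% of all genes tested. It gave 0 of the 8 an unadjusted p below 0.05, beside 1128 of 16383 genes. The MTOB effects that chose Rgs2 differed by -0.62 (wildtype minus dKO, SE 0.22), a description with no test. For 4-Cl-HIPP, leaving aside Gna15, limma gave 0 of the other 8 an adjusted p below 0.05, beside 0% of all genes. It gave 1 of the 8, Rgs2, an unadjusted p below 0.05, beside 734 of 16383 genes. The 4-Cl-HIPP effects that chose Gna15 differed by 0.12 (SE 0.16), a description as well. For Gnai2 the 95% interval of the difference was -0.15 to 0.11 for both inhibitors, and for Gna12 it was -0.13 to 0.24 for MTOB and -0.10 to 0.28 for 4-Cl-HIPP. For Rgs1 it was as wide as -0.88 to 1.47 for MTOB.

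The 9 genes were set beside 123 further genes of heterotrimeric G-protein signalling, of which 86 were listed and 82 tested. With MTOB in wildtype, 5 of the 82 were called higher and 0 lower, beside 1.56% and 0.452% of all genes. With MTOB in dKO cells, 3 were called higher and 2 lower, beside 1.15% and 0.476%. With 4-Cl-HIPP in wildtype, 13 of the 82 had an unadjusted p below 0.05, beside 1341 of 16383 genes tested. Limma called 0 of 82 in wildtype and 1 in dKO cells with 4-Cl-HIPP, beside 0.14% and 0.153% of all genes in either direction. That was the purinergic receptor gene P2ry13 at 0.387 ± 0.0518 TPM with vehicle and 1.11 ± 0.241 TPM with 4-Cl-HIPP (log2 fold change 0.60, limma adjusted p = 0.0397). That call was lost in 19 of 26 alternatives, among them pseudocounts of 0.1 and 0.5, the replicate block, the compared groups alone and 15 of 18 fits that each leave out 1 sample, and P2ry13 did not pass the filter of a mean normalized count of 10.

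Rgs16, an RGS gene that acts on Gi and Gq subunits, moved with MTOB in the opposite direction to Rgs2. It was at 0.385 ± 0.308 TPM with vehicle and 2.1 ± 0.284 TPM with MTOB in wildtype, and at 1.73 ± 0.271 and 12.4 ± 0.503 TPM in dKO cells. Its log2 fold change was 1.18 (SE 0.15, limma adjusted p = 0.000107) in wildtype and 2.30 (SE 0.15, limma adjusted p = 8.66e-08) in dKO cells. The difference of these effects was -1.12 (SE 0.21, limma adjusted p = 0.0718) and did not pass. It depended on the pseudocount, with -0.93 at 0.5 and -0.37 at 0.1 (limma adjusted p = 0.508 and 0.948). Rgs16 was the only one of the 7 further RGS genes called with MTOB, in either genotype.

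Among the receptors, MTOB raised Ptgir, the prostacyclin receptor gene, from 23.8 ± 1.55 to 46 ± 0.907 TPM in wildtype and from 20.1 ± 1.86 to 44.4 ± 0.85 TPM in dKO cells (1.9-fold and 2.15-fold, limma adjusted p = 1.4e-07 and 2.63e-08). Gpr84, the medium-chain fatty acid receptor gene, rose with MTOB in both genotypes too (log2 fold change 0.95 and 0.83, limma adjusted p = 1.01e-05 and 5.06e-05). The complement receptor gene C3ar1 and the adenosine receptor gene Adora2b were called higher in wildtype (0.96 and 0.59, limma adjusted p = 0.000156 and 0.0462), and C3ar1 passed in dKO cells below the 1.5-fold limit (0.52, limma adjusted p = 0.0201). In dKO cells P2ry12, a purinergic receptor gene, and S1pr1, a sphingosine-1-phosphate receptor gene, were called lower (-1.23 and -0.67, limma adjusted p = 0.0258 and 0.00921), and S1pr1 passed lower in wildtype below the 1.5-fold limit (-0.50, limma adjusted p = 0.0457). The call of Adora2b was lost in 18 of 27 alternatives, that of P2ry12 in 4 and that of S1pr1 in 2. In the other genotype the values had the same sign, 0.35 for Adora2b in dKO and -0.78 for P2ry12 in wildtype cells (limma adjusted p = 0.278 and 0.174). For neither gene did the difference between genotypes pass (limma adjusted p = 0.903 and 0.9). P2ry12 was low, at 2.58 ± 0.527 TPM with vehicle and 0.572 ± 0.502 TPM with MTOB in dKO cells. No further alpha, beta or gamma subunit gene was called with either inhibitor in either genotype.

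Between genotypes under vehicle, 13 of the 82 genes were called higher and 3 lower in dKO cells, beside 3.28% and 1.55% of all genes. By role, 2 of 7 RGS genes were called higher, Rgs3 (log2 fold change 1.02, limma adjusted p = 4.15e-05) and Rgs16 (1.00, limma adjusted p = 0.000258). Limma called 0 of 7 further alpha subunit and 0 of 9 beta or gamma subunit genes. Of these, 3 and 1 had an unadjusted p below 0.05, beside 3502 of 16383 genes tested. Of 16 effector genes 3 were called higher. Plcb2, which encodes a phospholipase C beta, rose by 0.88 on the log2 scale (limma adjusted p = 5.63e-06). Pik3r6, an adaptor of the phosphoinositide 3-kinase that beta-gamma pairs activate, rose by 0.75 (limma adjusted p = 0.00508). Adcy7, an adenylyl cyclase, rose by 0.66 (limma adjusted p = 9.76e-05).

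Of 32 receptor genes 8 were called higher and 2 lower under vehicle, beside 3.28% and 1.55% of all genes. The complement receptor genes C3ar1, C5ar1 and C5ar2 rose together, with C3ar1 at 0.991 ± 0.221 TPM in wildtype and 7.37 ± 0.181 TPM in dKO cells (log2 fold change 2.08, limma adjusted p = 1.85e-08) and values of 1.55 and 1.33 for C5ar1 and C5ar2 (limma adjusted p = 0.000144 and 2.38e-05). S1pr1 rose by 1.82, Cysltr1, a cysteinyl leukotriene receptor gene, by 1.18, Adora2b by 1.17, the cannabinoid receptor gene Cnr2 by 1.15 and the chemokine receptor gene Ccr2 by 0.84. Ccr2 was near 0, at 0.0256 ± 0.0443 TPM in wildtype and 0.84 ± 0.0721 TPM in dKO cells. Cnr2 was at 0.441 and 2.16 TPM and C5ar2 at 0.713 and 3.34 TPM. The pseudocount of 1 weighs on the log2 values of such low genes. The proton-sensing receptor gene Gpr65 fell by 2.45 on the log2 scale, from 12.2 ± 0.85 to 1.45 ± 0.562 TPM, and the chemokine receptor gene Cx3cr1 fell by 0.83. The remaining call was Gpsm1, a regulator that holds GDP-bound Gi subunits, which fell by 0.69.

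Under MTOB 13 of the 82 were called higher and 5 lower in dKO cells, and under 4-Cl-HIPP 16 higher and 4 lower, beside 3.33% and 1.62% and beside 3.14% and 1.58% of all genes. Some genes were called there but not under vehicle. Higher in dKO cells were the adenosine receptor gene Adora3 in both, the RGS-domain gene Axin1 under MTOB, and Adcy6, P2ry12 and P2ry13 under 4-Cl-HIPP. Lower were Adcy2 and the purinergic receptor gene P2ry2 under MTOB and the beta subunit gene Gnb5 under 4-Cl-HIPP. Under vehicle their values had the same signs. Adora3, Adcy6 and P2ry2 were at 0.59, 1.33 and -0.74 there (limma adjusted p = 0.0513, 0.0518 and 0.058), and Axin1 at 0.07 (0.882). The Adora3 call was lost in 17 of 26 alternatives under MTOB and 10 of 26 under 4-Cl-HIPP. Those of Axin1, Adcy6 and P2ry12 were lost in 4 of 27 each and that of Adcy2 in 3, and those of P2ry2, P2ry13 and Gnb5 in 0. Whether the genotype differences changed between treatments was tested as the interactions. Limma called 0 of 82 genes for MTOB and 0 for 4-Cl-HIPP, beside 0.0916% and 0% of all genes. An unadjusted p below 0.05 was found for 11 and 6 of the 82, beside 1128 and 734 of 16383 genes tested. The lists were chosen with results known, and no count here tests the list as a whole.

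**Figure D4:**
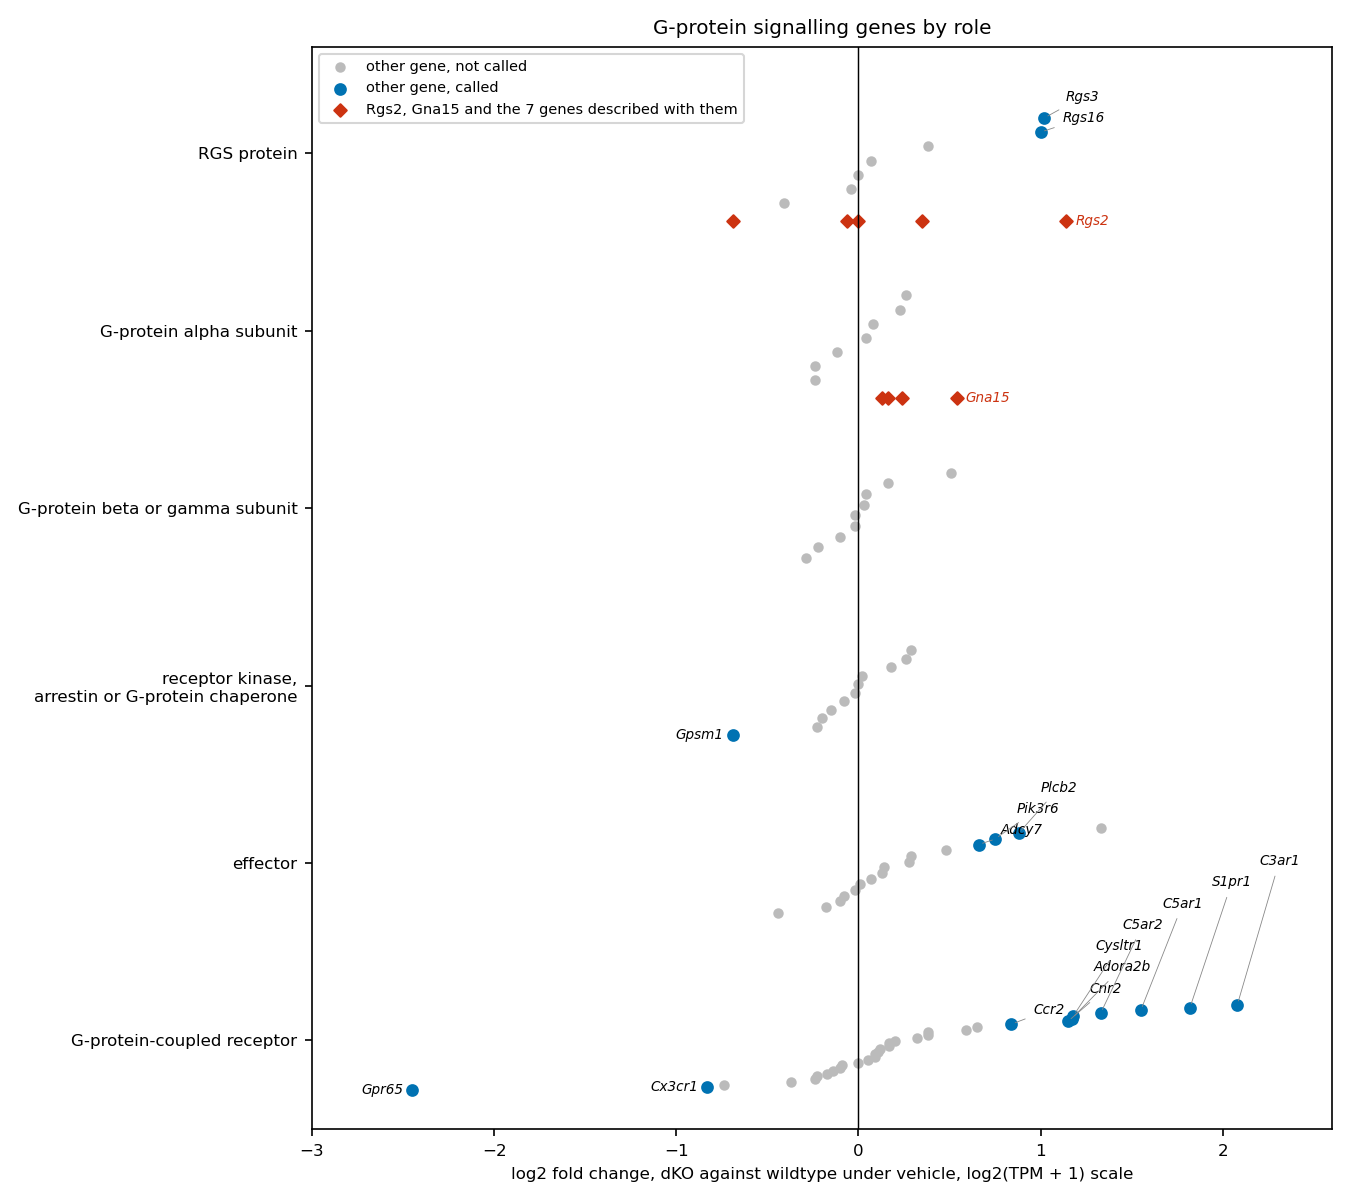
Log2 fold change of dKO against wildtype under vehicle for 82 G-protein signalling genes by role, with called genes in blue and named, and the 9 genes followed here as red diamonds. Called genes lie among the RGS, effector and receptor genes and 1 regulator, Gpsm1, while none of the 7 further alpha and 9 beta or gamma subunit genes was called.

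Genes whose pattern over the 18 samples was most like that of Rgs2, by Pearson r of log2(TPM + 1) among 9286 genes, were Sla (r = 0.97), Acox3 (0.969), Trem2 (0.967), Fam117b (0.965) and Fhod1 (0.96). Sla encodes an adaptor that dampens receptor tyrosine signals, Acox3 a peroxisomal oxidase of branched fatty acids, and Trem2 a lipid-sensing receptor of macrophages. Sla, for example, had means of 10.1, 6.65 and 12.8 TPM in wildtype vehicle, MTOB and 4-Cl-HIPP, and 18.5, 14.6 and 24.9 TPM in dKO cells. Its order of the 3 treatments was that of Rgs2 in each genotype.

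For Gna15 they were Tgfbr1 (r = 0.952), Fads2 (0.932), Neurl3 (0.932), B4galt1 (0.93) and Psrc1 (0.924). Tgfbr1, a receptor kinase for transforming growth factor beta, had means of 24.1, 19.4 and 44.9 TPM in wildtype vehicle, MTOB and 4-Cl-HIPP, and 37.1, 30 and 72.3 TPM in dKO cells. Rgs2 and Gna15 correlated with each other at r = 0.845. These values describe samples that share the same 6 groups, so they carry no p, and genes chosen as the most alike of 9286 are high by selection.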

How the data were processed

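RNA was sequenced from 18 samples of J774.1 cells, grouped by their labelled genotype and treatment. The authors quantified reads from an unstranded library with Salmon 1.9.0 on Gencode M28 (GRCm39) with GC correction and summarised them per gene. They deposited TPM, a length-scaled transcript share, for 18204 genes, and a signal column, the mean normalized count over samples from DESeq2 1.44.0. The log2 fold changes and adjusted p-values that the authors deposited hold their own comparisons of inhibitor and vehicle and were not used. Each TPM column summed to between 999766 and 999897, so the read depth is unknown and neither counting intervals nor detection limits are given.

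Here, log2(TPM + 1) of 16383 genes, those whose mean normalized count exceeded the 10th percentile (0.222), was fitted with 6 group means over all 18 samples in limma 3.58.1 (R 4.3.3), using moderated variances that follow the log2 mean count as a trend. The procedure was run on simulated data with the same spread setting for every gene. Only genes whose mean normalized count reached 50 were changed there, so that run does not cover lower genes such as Rgs1. P-values were adjusted within each comparison by the Benjamini-Hochberg method, across all genes. The pseudocount of 1 makes fold changes of low genes too small. The 10 genes, the list of 123 further G-protein signalling genes, the motifs and the limits were chosen with earlier results of these data known. Genes named were those 10, the listed genes called in at least 1 comparison, the 5 genes with the highest Pearson r to Rgs2 and to Gna15 among genes whose mean normalized count reached 50, the genes between members on a chromosome, and the targeted genes. Alternatives were other pseudocounts, filters, scalings, no variance trend, only the compared groups, a replicate block and leaving out each sample. Positions are from Gencode M39 on GRCm39. Plots used Python 3.11.15 and matplotlib 3.10.9. Rgs18 was not analysed here.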

Additional observations from a re-analysis of the deposited data

How the results depend on the processing

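Depth is unknown, since the values are TPM, and 3 samples a group limit the precision. All 3 genotype calls of Rgs2 held under the 9 alternative settings and without each of the 18 samples. The log2 fold changes were 0.98 to 1.27 under vehicle, 1.61 to 1.95 under MTOB and 1.54 to 1.73 under 4-Cl-HIPP. No value tested changed direction past a threshold. With 4-Cl-HIPP in wildtype, 1 of the 9 genes was called, Gna15, on the comparison that picked it. The count was 0 in a fit of the compared groups alone or with the replicate block. Leaving out 1 sample gave 0 to 1, with 0 without any wildtype vehicle sample or wildtype 4-Cl-HIPP replicate 2. In dKO cells with 4-Cl-HIPP it gave 0 to 1, and in the vehicle genotype comparison 1 to 2, where Gna15 passed 1.5-fold without wildtype vehicle replicate 3. Over all genes, fits with only the compared groups called 15 genes with 4-Cl-HIPP in wildtype, 135 with MTOB in dKO and 7 with 4-Cl-HIPP in dKO cells, against 23, 267 and 25. Without dKO MTOB replicate 1, Gna13 (0.32, adjusted p = 0.0108) and Gna12 (0.24, adjusted p = 0.0291) passed in the genotype comparison under MTOB. There Gna13 also passed with a mean normalized count of 10 or more and with median-of-ratios scaling (limma adjusted p = 0.04 and 0.0475). It passed too without wildtype 4-Cl-HIPP replicate 2 or dKO 4-Cl-HIPP replicate 1 (0.0431 and 0.0474). Gna12 also passed with the replicate block and without wildtype MTOB replicate 3 (0.0379 and 0.0233). The cause of these changes was not tested.

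Deviations from group means of same-numbered samples correlated with r from -0.15 to 0.14 across 9287 genes, and 1 of 45 pairs exceeded 0.1. Such a check over many genes cannot show a shared effect on few genes. Rgs1, with a mean normalized count of 3.53, was too low to be among the 9287. Whether replicate numbers pair the samples was not tested further. The replicate block took the count of members called with 4-Cl-HIPP in wildtype to 0 and left it at 1 in each of the other 6 comparisons.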
